A study of Mus musculus with 8 samples.

Results

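The genes described here are the mouse semaphorins, plexins and neuropilins, a family of guidance ligands and their receptors, in MIN6 cells given a plasmid for the transcription factor Klf4. Members were taken by symbol: 20 semaphorins of classes 3 to 7, 9 plexins and the neuropilins Nrp1 and Nrp2, in all 31 of the 55536 genes in the count table. The family was chosen by a value measured here, Sema6a being among the genes lowered most in this same contrast, so every difference between the plasmids given below for a member is a description and is not used as a test of it. MIN6 is an insulin-producing line derived from a mouse pancreatic tumour. The control group was 4 libraries of wild-type MIN6 cells transfected for 48 h with the empty vector pcDNA 3, and the other group was 4 libraries of wild-type MIN6 cells transfected for 48 h with pGloMyc-Klf4. All cells received the lipid reagent Lipofectamine 3000, the plasmids differ in backbone as well as in Klf4, and the share of cells that took up plasmid is not given. By the labels, batch 1 holds replicates 1 and 2 of each plasmid and batch 2 holds replicates 3 and 4. The extraction text speaks of islets, while every library is named MIN6. In polyadenylated RNA from whole cultures, a change in the number of cells expressing a gene and a change in RNA per cell cannot be told apart.

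Semaphorins share the sema domain, by which they bind plexins. Class 3 semaphorins are secreted, classes 4 to 6 span the membrane, and Sema7a is held by a lipid anchor. Plexins are single-pass receptors whose cytoplasmic part carries a GTPase-activating domain for small GTPases of the Ras and Rap type. Most class 3 semaphorins cannot bind plexins alone and need a neuropilin, a co-receptor with a short cytoplasmic tail that also binds vascular endothelial growth factor. The family is best known for steering axons and blood vessels, and it also acts in epithelia, immune cells and the pancreas.

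Library depth was 45417853 to 52731176 counts, and 45570 to 64000 of these fell on the 31 genes. Klf4 itself, the check of the labels, ranged from 36.1 to 42.8 CPM (counts scaled to library size with edgeR's TMM factors) in control libraries and from 4532 to 5853 CPM in Klf4-transfected libraries. All 9 β-cell markers on the list passed the filter on low counts, 4 of them lower and none higher, and their summed level was 24520 to 31339 CPM in control and 22935 to 31624 CPM in Klf4-transfected libraries. The list of α-cell markers summed to 588.9 to 710.4 CPM and 602.7 to 704.5 CPM. Most of each sum was Ttr, at means of 577 and 570 CPM, which was not past the threshold. Of the 4 tested genes of this list 2 were higher and none lower. Not both of these 2 passed the filter through the control libraries alone. The markers of macrophages (6.2 to 6.75 CPM against 6.03 to 7.69 CPM) and of acinar cells (1.42 to 3.92 CPM against 1.34 to 3.05 CPM) summed to low levels in both groups, with no gene called and with Prss2 and Amy2a2 at 0 counts throughout. The 6 endothelial markers summed to 19.2 to 23.9 CPM in control and 22.1 to 24.1 CPM in Klf4-transfected libraries, with Cdh5 higher and Kdr without counts in the controls. The 6 fibroblast markers summed to 2.61 to 3.84 CPM in control and 21 to 27.4 CPM in Klf4-transfected libraries. Of that list Dcn, Pdgfra and Col1a1 were higher, Col1a2 was not past the threshold, Col3a1 was too low to be tested and Lum had no counts. Most of that sum was Dcn, at 17.6 ± 3.82 CPM (SD, n = 4) in Klf4-transfected libraries. The 6 neuron and glia markers summed to 332.4 to 374.1 CPM and 324.3 to 347.3 CPM, with Sox10 and Rbfox3 higher and Snap25 lower; Sox10 went from 0.0416 ± 0.0177 to 0.981 ± 0.141 CPM (SD, n = 4). Cdh5, Dcn, Pdgfra and Sox10 passed the filter only through the Klf4-transfected libraries, so that their difference was built into their being tested. Some genes of these lists differed in the contrast that all member values below rest on, where 36.6% of all tested genes were called. Their part in those values was not tested.

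Most of the family was higher with the Klf4 plasmid, and Sema6a, the most abundant semaphorin of control cells per length, was lower. Of the 31 genes, 30 passed the filter on low counts. At an adjusted p under 0.05 (quasi-likelihood test of edgeR, Benjamini-Hochberg over all 18266 tested genes), 22 members were higher, 1 was lower, and 7 were not past the threshold. Over all genes 36.6% were called, 21.1% higher and 15.5% lower. With scaling factors set from abundant genes alone, 72.8% of all calls were higher, where TMM factors gave 57.7%. The median log2 fold change was 0.48 over the 30 members and -0.01 over all tested genes. Changes of at least 1 on the log2 scale were reached by 7 members, against 8.5% of all genes. Control and Klf4-transfected libraries did not overlap in CPM for 19 of the 30 tested members, and for 26.1% of all tested genes. Plxna4, Sema3b and Sema3d passed the filter only through the Klf4-transfected libraries, so that their difference was built into their being tested, and Plxnb3 did not pass it.

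**Figure D1:**
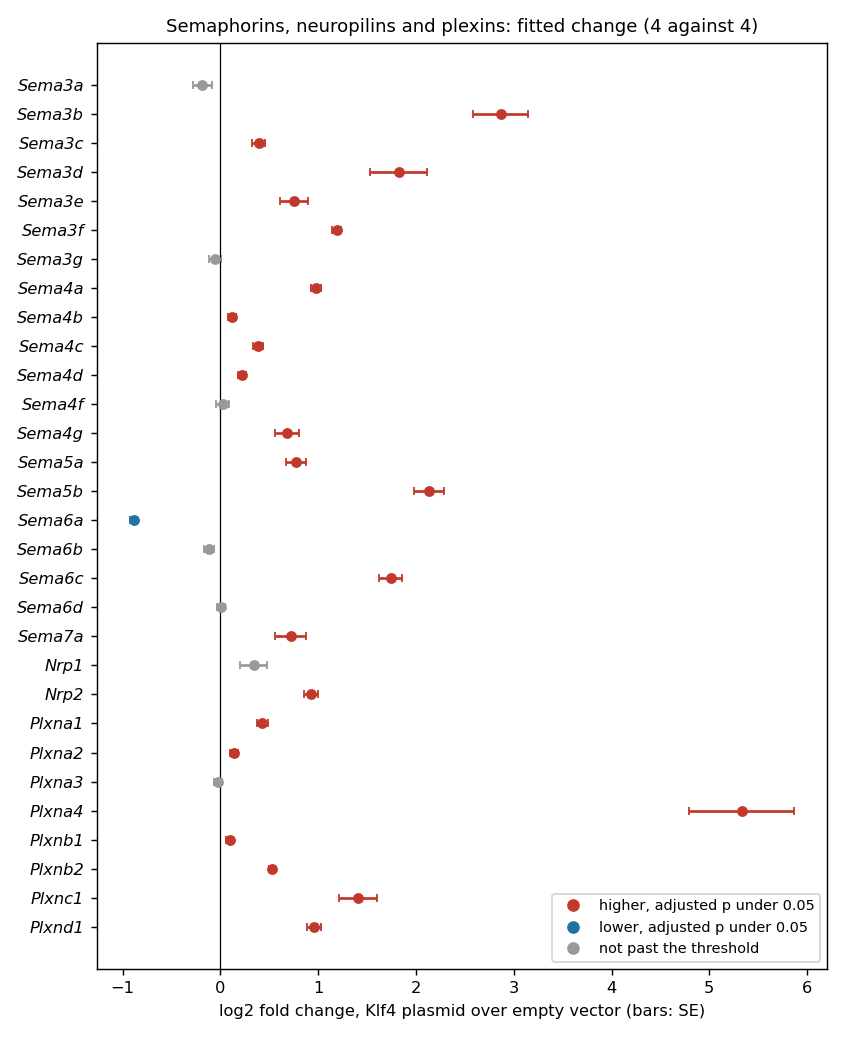
Log2 fold change of the Klf4 plasmid over the empty vector for the 30 tested members, grouped as class 3 to class 7 semaphorins, neuropilins and plexins. Points are fitted values with SE bars, red where higher and blue where lower at an adjusted p under 0.05, grey otherwise. Sema6a at -0.89 is the single lowered member, and Plxna4 at 5.33 rests on 3 control counts.

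The counts are also given by control level. Of the 4513 tested genes under 1 CPM in control cells, 2063 did not pass the filter through the control libraries alone, nor did Plxna4, Sema3b and Sema3d, so that a high share of higher genes is partly built in there. Among genes under 1 CPM in control cells 29.4% were higher, and 5 of 5 such members were. Between 1 and 5 CPM it was 20% of genes and 5 of 6 members, between 5 and 20 CPM 22% of genes and 4 of 8 members, and between 20 and 100 CPM 18.1% of genes and 6 of 8 members. Above 100 CPM it was 12.9% of genes and 2 of 3 members, Plxnb1 and Plxnb2.

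RefSeq promoter windows of 300 bases around annotated starts (GRCm38.p6) were matched by symbol for 26 of the 31 members, some with several starts, 37 windows in all. They were searched on both strands for CCCCACCC and for CCACACCC, G/C-rich and CACCC-type letters of the kind that Klf factors bind. A window each of Sema6c, Sema5b, Sema4a and Plxnb2 is shown because these genes were higher and the window holds the first of these, and that of Plxnd1 because that gene was higher and its window holds neither. The windows shown for Sema6c and Plxnb2 lie inside the gene. Each of these genes has another window, at its outermost annotated start, that holds neither (chr3:95160170-95160469 and chr15:89180739-89181038). Among the further windows of Sema4a, chr3:88455712-88456011 and chr3:88458835-88459134 hold neither, and chr3:88459052-88459351 holds CCCCACCC. Capitals mark a match to CCCCACCC or its reverse complement GGGTGGGG.
Sema6c, chr3:95164089-95164388, plus strand: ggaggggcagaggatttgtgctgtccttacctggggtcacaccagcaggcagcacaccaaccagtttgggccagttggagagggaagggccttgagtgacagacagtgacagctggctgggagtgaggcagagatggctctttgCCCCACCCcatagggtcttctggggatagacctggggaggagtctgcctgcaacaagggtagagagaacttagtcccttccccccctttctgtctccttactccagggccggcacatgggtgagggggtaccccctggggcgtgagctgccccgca
Sema5b, chr16:35541112-35541411, plus strand: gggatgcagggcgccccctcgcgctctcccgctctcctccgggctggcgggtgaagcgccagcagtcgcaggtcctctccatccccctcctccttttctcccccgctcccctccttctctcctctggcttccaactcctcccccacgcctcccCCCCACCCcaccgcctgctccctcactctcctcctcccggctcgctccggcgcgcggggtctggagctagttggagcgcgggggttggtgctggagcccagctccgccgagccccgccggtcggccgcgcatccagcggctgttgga
Sema4a, chr3:88461133-88461432, minus strand: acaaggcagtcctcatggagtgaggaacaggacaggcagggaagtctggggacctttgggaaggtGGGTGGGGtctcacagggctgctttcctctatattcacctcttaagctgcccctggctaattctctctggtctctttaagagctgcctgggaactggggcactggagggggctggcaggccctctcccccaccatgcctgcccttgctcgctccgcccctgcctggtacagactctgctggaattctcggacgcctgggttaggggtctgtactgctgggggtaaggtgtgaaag
Plxnb2, chr15:89173902-89174201, minus strand: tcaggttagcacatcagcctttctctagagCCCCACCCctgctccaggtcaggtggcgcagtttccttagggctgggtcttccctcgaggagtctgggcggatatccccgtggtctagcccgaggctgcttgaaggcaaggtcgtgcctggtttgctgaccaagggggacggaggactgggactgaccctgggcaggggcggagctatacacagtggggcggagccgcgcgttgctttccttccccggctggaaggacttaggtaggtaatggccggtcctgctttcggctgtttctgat
Plxnd1, chr6:115994956-115995255, minus strand: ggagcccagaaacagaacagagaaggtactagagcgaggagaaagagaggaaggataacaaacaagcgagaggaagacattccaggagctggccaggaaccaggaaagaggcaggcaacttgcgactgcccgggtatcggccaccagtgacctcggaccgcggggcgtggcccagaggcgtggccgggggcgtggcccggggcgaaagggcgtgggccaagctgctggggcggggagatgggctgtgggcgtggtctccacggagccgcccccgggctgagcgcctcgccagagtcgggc

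CCCCACCC was in 12 of the 37 member windows (32.4%), in 11 genes, and in 9.99% of all 32851 windows. Member windows were richer in G and C, with a median of 63.7% against 52.7%, and such windows held these letters more often: among windows with at least 60% G and C the share was 15.8% of all windows and 9 of 23 member windows. The 11 genes were Plxnb1, Plxnb2, Sema3c, Sema4a, Sema4c, Sema4d, Sema4g, Sema5a, Sema5b, Sema6c and Sema7a. The members with no window here were Plxna1, Plxna4, Sema3b, Sema3f and Sema6a. CCACACCC was in 1 member window, that of Plxna3, and in 3.56% of all windows. The shorter CACCC, which both contain, was in 31 member windows and in 57.5% of all windows, and the window of Plxnd1 lacks it. These matches are letters in a window, and no binding was measured.

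The class 6 semaphorins are transmembrane ligands that can also signal back into the cell that carries them. Sema6a, a ligand of Plxna2 and Plxna4 (ENSMUSG00000019647, protein-coding, on chromosome 18 in GRCm38), had 115.2, 114.3, 130.8 and 132 CPM in control replicates 1 to 4 and 56.1, 63, 72.1 and 76.2 CPM in Klf4-transfected replicates 1 to 4. In both groups the batch 2 libraries were the higher ones, and no Klf4-transfected library came near a control library. The ratio of the means was 0.543, and the log2 fold change was -0.89 (SE 0.04), the value for which the family was chosen.

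Sema6c, a transmembrane relative of Sema6a (ENSMUSG00000038777, chromosome 3, 95160457 to 95174024, plus strand), had 4.35, 3.74, 3.57 and 3.21 CPM in control replicates 1 to 4 and 11.6, 9.72, 12.5 and 16.1 CPM in Klf4-transfected replicates 1 to 4. The groups did not overlap, and Klf4-transfected replicate 4 was the highest library. The log2 fold change was 1.74 (SE 0.12). Per kilobase of exon, Sema6a exceeded Sema6c by 22.8 ± 4.38 times (SD, n = 4) with the empty vector and by 3.69 ± 0.564 times with the Klf4 plasmid. Sema6d, a ligand of Plxna1, had 38.8 to 43.3 CPM in control and 39.1 to 42.7 CPM in Klf4-transfected libraries, a log2 fold change of 0.01 (SE 0.04). Sema6b had 16.1 to 17.9 CPM and 14.4 to 17.1 CPM, a log2 fold change of -0.12 (SE 0.06). Neither Sema6b nor Sema6d was past the threshold, and their groups overlapped, so the class held a lowered, a raised and 2 uncalled genes.

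**Figure D2:**
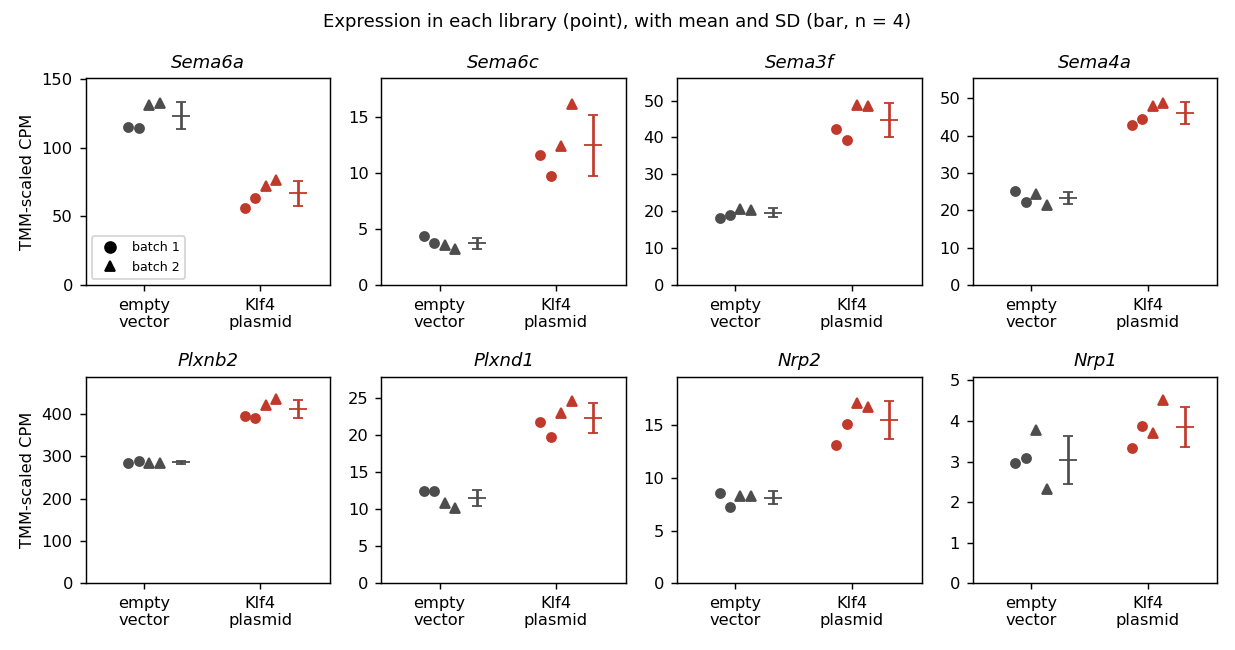
TMM-scaled CPM of 8 members in each library, with circles for batch 1, triangles for batch 2 and bars for mean and SD (n = 4). Sema6a is lower in every Klf4-transfected library, the next 6 genes are higher in every one, and the groups overlap for Nrp1.

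Of the 7 secreted class 3 semaphorins, 5 were higher and 2 were not past the threshold, where 21.1% of all genes were higher. Of these 5, Sema3b and Sema3d passed the filter only through the Klf4-transfected libraries. Sema3f, a neuropilin-2 ligand that repels axons and vessels (ENSMUSG00000034684, chromosome 9, 107681500 to 107710475, minus strand), had 18.1, 19, 20.7 and 20.4 CPM in control and 42.2, 39.3, 48.7 and 48.5 CPM in Klf4-transfected replicates 1 to 4. Every Klf4-transfected library was above every control library, with a log2 fold change of 1.19 (SE 0.04). Its neighbour Sema3b, 72.3 kb away on the same strand of chromosome 9 and another neuropilin ligand, had 0.404, 0.288, 0.0609 and 0.559 CPM in control and 2.26, 2.45, 2.45 and 2.41 CPM in Klf4-transfected replicates. Control replicate 3 held only 3 counts of it, and the groups did not overlap (log2 fold change 2.87, SE 0.29).

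A further group of class 3 genes lies on chromosome 5, in the order Sema3d, Sema3a, Sema3e and Sema3c. Sema3d, at 0.255, 0.226, 0.183 and 0.29 CPM in control and 1.05, 0.751, 0.799 and 0.796 CPM in Klf4-transfected replicates, did not overlap between the groups (log2 fold change 1.82, SE 0.29), on 9 to 14 counts per control library. Sema3e, which binds Plxnd1 without a neuropilin, had 1.93, 1.81, 1.44 and 1.45 CPM and 3.15, 2.76, 3 and 2.2 CPM (log2 fold change 0.75, SE 0.14). Its groups did not overlap, and Klf4-transfected replicate 4 was the closest to the controls. Sema3c, a ligand of both neuropilins, had 11.9, 9.47, 11.4 and 12 CPM and 13.6, 13.8, 15.4 and 16 CPM (log2 fold change 0.39, SE 0.07), again without overlap. Sema3a, the founding axon repellent of the class and a neuropilin-1 ligand, lies between Sema3d and Sema3e and was not past the threshold, with 4.41 to 6.31 CPM in control and 4.42 to 4.8 CPM in Klf4-transfected libraries (log2 fold change -0.18, SE 0.10). Sema3g, a neuropilin-2 ligand on chromosome 14, was not past it either (log2 fold change -0.05, SE 0.06).

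Of the 6 transmembrane class 4 semaphorins, 5 were higher, where 21.1% of all genes were. Sema4f was not past the threshold (log2 fold change 0.02, SE 0.06). Sema4a, known from immune cells and retina and able to bind plexins of the B and D types (ENSMUSG00000028064, chromosome 3, 88435959 to 88461182, minus strand), had 25.1, 22.2, 24.4 and 21.5 CPM in control and 42.7, 44.4, 48.1 and 48.8 CPM in Klf4-transfected replicates 1 to 4. The groups did not overlap, and its log2 fold change of 0.98 (SE 0.05) was the largest of the class. Sema4c, a ligand of Plxnb2, had 29.4, 26.1, 29.9 and 30.6 CPM and 37.8, 35.3, 36.9 and 41.6 CPM (log2 fold change 0.39, SE 0.05). The groups did not overlap, and 7.27% of its exonic bases are shared with D430040D24Rik on the opposite strand, which had 116 to 152 counts in control and 117 to 217 in Klf4-transfected libraries. Without a stated strand setting these reads cannot be assigned.

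Sema4d, the ligand of Plxnb1, had 53.1, 49.2, 49.8 and 51.1 CPM in control and 59.6, 56.6, 60.5 and 60.1 CPM in Klf4-transfected replicates (log2 fold change 0.22, SE 0.04). The difference was small and the groups did not overlap. Sema4g, a ligand of Plxnb2, had 2.51, 1.83, 3.53 and 2.65 CPM and 3.21, 3.78, 4.98 and 4.91 CPM (log2 fold change 0.68, SE 0.13). Its groups overlapped, control replicate 3 being above Klf4-transfected replicate 1, and batch 2 was the higher batch in both groups. Sema4b, the most abundant of the class per length, had 66.1, 70.7, 57.7 and 60.3 CPM and 70.8, 71.1, 64.1 and 70.7 CPM (log2 fold change 0.12, SE 0.04). Its groups overlapped, and its call was lost without control replicate 1, 3 or 4 or without Klf4-transfected replicate 4, at log2 fold changes of 0.10, 0.08, 0.11 and 0.07, and without the batch term.

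Both class 5 semaphorins, transmembrane proteins with thrombospondin repeats, were higher, where 21.1% of all genes were. Sema5b (ENSMUSG00000052133, chromosome 16, 35541145 to 35664732, plus strand) had 1.02, 0.637, 0.811 and 1.18 CPM in control and 3.64, 3.56, 4.32 and 4.49 CPM in Klf4-transfected replicates (log2 fold change 2.13, SE 0.16). Sema5a had 5.54, 4.93, 3.75 and 3.71 CPM and 7.45, 7.33, 7.8 and 7.77 CPM (log2 fold change 0.77, SE 0.10). Neither gene overlapped between the groups, and the control libraries of Sema5a varied more than its Klf4-transfected libraries. Sema7a, the lipid-anchored ligand of Plxnc1 and of β1 integrin, had 1.55, 1.09, 1.42 and 1.33 CPM and 1.95, 2.1, 2.32 and 2.52 CPM, without overlap (log2 fold change 0.72, SE 0.16).

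Of 8 tested plexins, 7 were higher and Plxna3 was not past the threshold, where 21.1% of all genes were higher. Of these 7, Plxna4 passed the filter only through the Klf4-transfected libraries, and Plxnb1 and Plxna2 lost their call in some alternatives. Plxnb2, a receptor for class 4 semaphorins (ENSMUSG00000036606, chromosome 15, 89155549 to 89180788, minus strand), had 284.2, 289.9, 284.7 and 284.8 CPM in control and 396.2, 390.8, 422.5 and 436.3 CPM in Klf4-transfected replicates 1 to 4. The control libraries lay within a narrow band and all Klf4-transfected libraries lay above it (log2 fold change 0.52, SE 0.03). Plxnb1, the Sema4d receptor, had 123.5, 121.2, 114.7 and 112.4 CPM and 130.4, 131.7, 114.8 and 127.1 CPM. Its groups overlapped, and its log2 fold change of 0.10 (SE 0.03) lost its call in 7 of the 8 fits that left out a library, where it was 0.06 to 0.09, and without the batch term. The third B-type plexin, Plxnb3, had 2 to 10 counts in every library and was not tested.

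Plxnd1, the Sema3e receptor known from vessel patterning (ENSMUSG00000030123, chromosome 6, 115954811 to 115995005, minus strand), had 12.5, 12.4, 10.9 and 10.2 CPM in control and 21.8, 19.8, 23 and 24.6 CPM in Klf4-transfected replicates (log2 fold change 0.96, SE 0.07). Plxnc1, the Sema7a receptor, had 0.871, 1.07, 1.22 and 0.601 CPM and 2.11, 2.12, 2.97 and 2.88 CPM (log2 fold change 1.41, SE 0.19). Neither of these genes overlapped between the groups. Sema3e and Plxnd1 were both higher, as were Sema7a and Plxnc1, in a family where 22 of 30 tested members were higher. In other pairs only the receptor was higher, as for Sema6d (0.01) and Plxna1 (0.43) and for Sema3g (-0.05) and Nrp2 (0.93).

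The A-type plexins transmit class 3 signals through neuropilins and class 6 signals directly. Plxna1 had 26.9, 30.7, 27.9 and 26.4 CPM in control and 34.7, 34.8, 40.7 and 40.4 CPM in Klf4-transfected replicates, without overlap (log2 fold change 0.43, SE 0.06). Of its exonic bases 10.7% are shared with Gm26811 on the opposite strand, which had at most 7 counts in any library. Plxna2 overlapped between groups at 36.6 to 46.5 CPM and 40.6 to 47.6 CPM (log2 fold change 0.14, SE 0.04). Its call was lost without control replicate 1 or 3 or Klf4-transfected replicate 3, at 0.10, 0.11 and 0.10, and without the batch term. Plxna3 had 31.9, 32, 29 and 30.4 CPM in control and 33.2, 32.8, 27.3 and 28.1 CPM in Klf4-transfected replicates (log2 fold change -0.02, SE 0.04). Its groups overlapped, and batch 2 was the lower batch in both. Plxna4 had 0, 1, 0 and 2 counts in control and 36, 26, 43 and 42 counts in Klf4-transfected replicates 1 to 4. Summed over the libraries this was a ratio of 46.8, with an exact 95% counting interval of 15.7 to 230 that covers counting error only. Plxna4 passed the filter only through the Klf4-transfected libraries, so the interval is not used as a test of the difference. Of these receptors for Sema6a, Plxna2 was expressed in both groups and Plxna4 was near absent from control libraries.

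The neuropilins were the scarcest receptors per length apart from Plxnb3, Plxna4 and Plxnc1. Nrp2 (ENSMUSG00000025969, chromosome 1, 62703285 to 62818695, plus strand), the Sema3f co-receptor, had 8.62, 7.25, 8.34 and 8.33 CPM in control and 13.1, 15.2, 17.1 and 16.7 CPM in Klf4-transfected replicates (log2 fold change 0.93, SE 0.07). Nrp1, the Sema3a co-receptor, had 2.97, 3.08, 3.77 and 2.32 CPM and 3.33, 3.87, 3.71 and 4.51 CPM. The groups were apart for Nrp2 and overlapped for Nrp1, whose log2 fold change of 0.34 (SE 0.14) was not past the threshold. Nrp1 did pass it without control replicate 3 (0.45), with no filter (0.33) and with factors from abundant genes (0.38). The ratio of Nrp2 to Nrp1 per length was 2.28 ± 0.517 (SD, n = 4) with the empty vector and 3.34 ± 0.327 with the Klf4 plasmid.

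Per kilobase of exon, Plxnb2 led the family in control cells at 37 ± 0.346 CPM per kb (SD, n = 4), followed by Sema6a at 14 ± 1.1, Plxnb1 at 12.3 ± 0.547 and Sema4b at 11.3 ± 1.04 CPM per kb. The range of Plxnb1 (11.7 to 12.9) overlapped that of Sema4b (10.2 to 12.5), and that of Sema6a (13 to 15) lay just above both. Then came Sema4d at 6.62 ± 0.224 and Sema4c at 6.32 ± 0.437 CPM per kb, whose ranges overlapped. Next was a tight group of Sema4a, Sema6b, Plxna3, Sema3g, Sema6d and Sema3f between 4.31 and 3.76 CPM per kb. At the other end were Sema3d at 0.0277 ± 0.00529, Plxnb3 at 0.0207 ± 0.0108 and Plxna4 at 0.0011 ± 0.00141 CPM per kb.

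**Figure D3:**
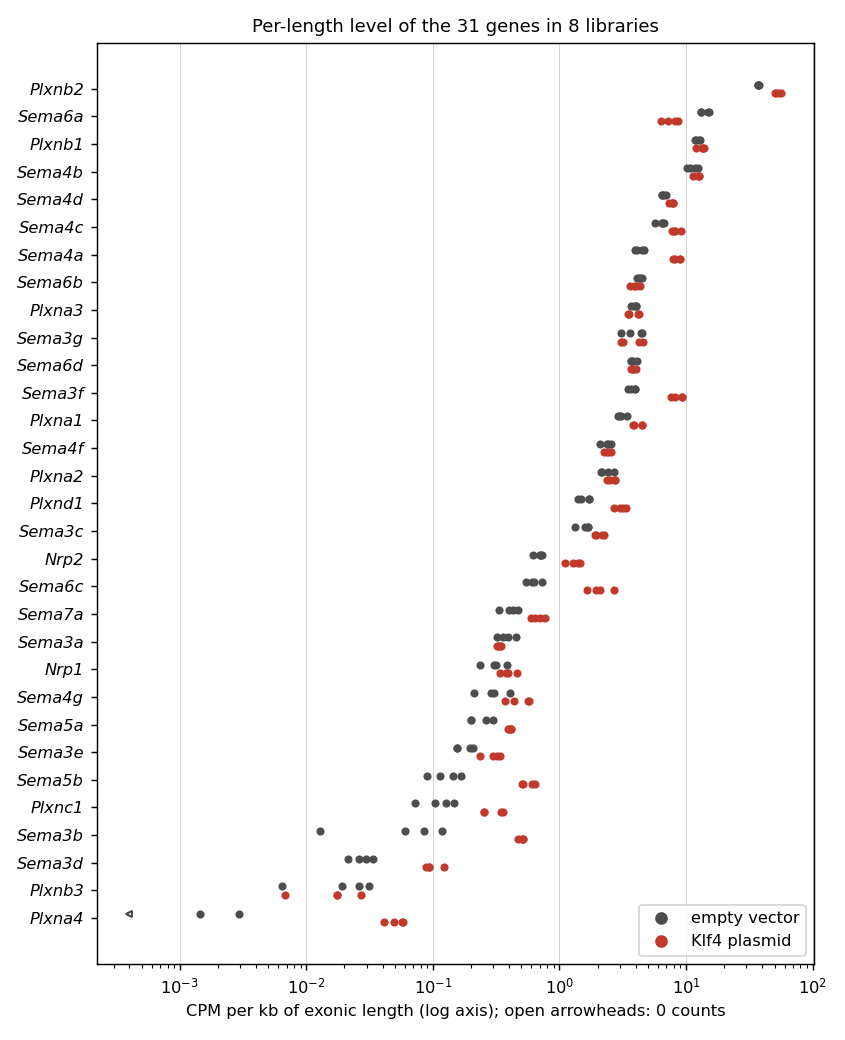
Level of the 31 genes in CPM per kilobase of exonic length (log axis), with genes ordered by their mean in the empty-vector libraries. Each point is a library, grey for empty vector and red for Klf4 plasmid, and open arrowheads mark libraries with 0 counts; Plxnb2 is at the top at 37 CPM per kb in control cells.

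Sema6a made up 20, 20.4, 23.3 and 23.2% of the summed per-length level of the 20 semaphorins in control replicates 1 to 4, and 8.87, 9.9, 11 and 11.1% in Klf4-transfected replicates. Sema3f went from 5.83% ± 0.403 to 11.5% ± 0.889 and Sema4a from 6.67% ± 0.461 to 11.4% ± 0.383 (SD, n = 4). In Klf4-transfected replicates 1 to 4 Sema3f held 11.3, 10.5, 12.5 and 11.9% and Sema4a held 11, 11.3, 11.9 and 11.5%, each more than Sema6a in the same library. The secreted class as a whole went from 15.3% ± 0.661 to 21% ± 0.636 of the semaphorin level (SD, n = 4). The sum itself was 64.6 ± 0.877 CPM per kb in control and 74.4 ± 2.95 CPM per kb in Klf4-transfected libraries, and without Sema6a it was 50.6 ± 1.56 and 66.8 ± 2.06 CPM per kb (SD, n = 4). Among plexins, Plxnb2 held 61.3% ± 1.1 (SD, n = 4) of the summed level with the empty vector and 66.2% ± 1.55 with the Klf4 plasmid, and Plxnb1 held 20.4% ± 0.546 and 16.3% ± 1.28.

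The difference between batches was a contrast that the choice of members did not use. In the fit over all libraries 8 of 30 members differed between batch 2 and batch 1 at an adjusted p under 0.05, 3 higher and 5 lower, where 25.1% of all genes did, so that the family was near the background. Sema3g showed it most plainly, at 20.2, 20, 14 and 16.4 CPM in control replicates 1 to 4 and 19.2, 20.7, 14.4 and 13.9 CPM in Klf4-transfected replicates. All 4 libraries of batch 2 lay below all 4 of batch 1, and the log2 difference of batch 2 from batch 1 was -0.45 (SE 0.06, edgeR adjusted p 6.41e-06). Sema6a was higher in batch 2 by 0.25 (SE 0.04, edgeR adjusted p 2.77e-05), Sema3f by 0.21 (SE 0.04, edgeR adjusted p 0.00141) and Sema4g by 0.51 (SE 0.13, edgeR adjusted p 0.00467). The other lowered genes were Plxna2, Plxna3, Plxnb1 and Sema4b, with log2 differences of -0.21 to -0.11.

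Fitted within each batch, the plasmid difference had the same sign in both for 28 of 30 members, where 74.5% of all genes fitted in both did, and the exceptions were Plxna3 and Sema6d, both close to 0. Sema6a was at -0.95 in batch 1 and -0.81 in batch 2. The difference between batches was not past the threshold for any member (edgeR interaction test, adjusted over all genes), and none was called by DESeq2, while 0.766% of all genes were called by edgeR. At an unadjusted p under 0.05 there were 6 of 30 members, where 10.6% of all genes were. These 6 were Sema6c (1.40 in batch 1 and 2.09 in batch 2), Plxnd1 (0.74 and 1.19), Sema5a (0.49 and 1.07), Plxna1 (0.27 and 0.59), Sema4a (0.88 and 1.09) and Plxnb2 (0.45 and 0.60), each larger in batch 2. Klf4 was at 6.78 in batch 1 and 7.17 in batch 2. It was itself past the threshold (interaction 0.37, SE 0.07, edgeR interaction test, adjusted p 0.0057), and its part in the values of these 6 genes was not tested. The interaction threshold was passed by Plxna1 without control replicate 1 (0.38), by Sema6c without Klf4-transfected replicate 3 (0.83) or with no filter (0.67), and by Plxnd1 with other scaling or filters (0.43 to 0.45).

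**Figure D4:**
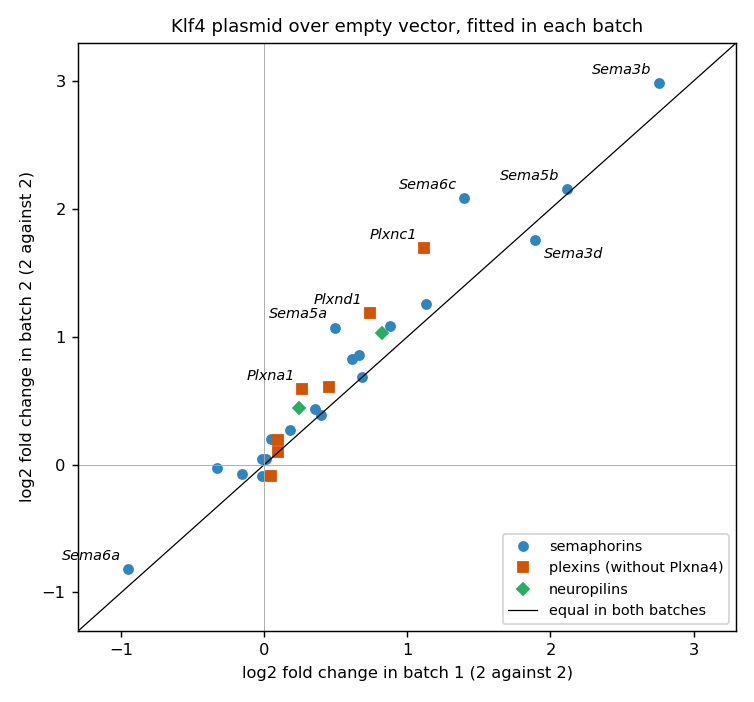
Log2 fold change of the Klf4 plasmid over the empty vector fitted in batch 1 (x) and in batch 2 (y), 2 against 2 libraries each, for 29 members (Plxna4 lies outside the axes). The line marks equal change. Sema6a lies at -0.95 and -0.81, and Sema6c, Plxnd1 and Sema5a lie above the line.

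Beyond ligands and receptors, 44 co-receptors and cytoplasmic partners were examined, from integrins and growth factor receptors to GTPases, their exchange factors and the cytoskeletal effectors of plexins. Of these 42 were tested, 24 were higher, 6 were lower and 12 were not past the threshold, where 21.1% of all genes were higher and 15.5% lower. Across the alternatives tried, 18 to 27 were higher and 4 to 6 lower, and 22 of the 30 calls held in every one that gave a value. Dpysl4 and Kdr were too low to be tested. This list was chosen with earlier results of these data known, so the differences given for it are a description too. Adjusted p-values printed for it are not used as support.

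Flt1, Met and Dpysl3 passed the filter on low counts only through the Klf4-transfected libraries, so that their difference was built into their being tested, and no p is given for them. Flt1, a receptor for vascular endothelial growth factor, had 0, 3, 1 and 6 counts in control and 277, 263, 432 and 417 counts in Klf4-transfected replicates (log2 fold change 6.98, SE 0.25). Its partner in endothelial cells, Kdr, was not detected in the controls and averaged 0.0192 CPM with the Klf4 plasmid. Met, the hepatocyte growth factor receptor that associates with B-type plexins, had 1 count in all control libraries together and 43, 24, 57 and 54 counts in Klf4-transfected replicates. Its ratio was 170, with an exact 95% counting interval of 30.1 to 6760 that covers counting error only and is not used as a test. Erbb2, the other receptor tyrosine kinase known to pair with B-type plexins, rose by 2.01 on the log2 scale (SE 0.11, edgeR adjusted p 1.7e-12), with means of 2.52 ± 0.421 and 10.2 ± 1.36 CPM (SD, n = 4).

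Rnd GTPases bind the cytoplasmic part of plexins, and all 3 were higher. Rnd2 rose by 1.62 on the log2 scale (SE 0.06, edgeR adjusted p 1.24e-15), with means of 9.86 ± 1.31 and 30.5 ± 5.27 CPM (SD, n = 4), while Rnd1 and Rnd3 had log2 fold changes of 0.53 and 0.84. The collapsin response mediators, which relay class 3 signals to microtubules, gave Dpysl3 (log2 fold change 2.22, SE 0.30), with 9 to 15 counts in control and 24 to 88 in Klf4-transfected libraries, and higher Crmp1, Dpysl2 and Dpysl5. Also higher were the adhesion molecules Chl1 and L1cam, the kinases Limk1, Limk2 and Fyn, the GTPases Mras, Rras, Rras2 and Rac1, the effectors Mical1 and Mical2, and Farp1, Gipc1 and Ptk7. Of these genes Dpysl2, Mical1, Mical2, Ptk7, Rac1 and Rras2 lost their call in some alternatives, Mical2, Ptk7 and Rac1 in most. The lowered genes changed little, by -0.22 to -0.11 on the log2 scale: Farp2, Arhgef12, Nrcam, Arhgef11, Gsk3b and Rap1b, of which Nrcam and Rap1b each lost the call in 1 alternative. Arhgef11 and Arhgef12 are the exchange factors by which B-type plexins act on RhoA, and Rhoa itself was not past the threshold (0.04, SE 0.03). For Rac1, Rnd2, Farp2, Arhgef11, Arhgef12 and Mical1 part of the exonic bases are shared with a gene on the opposite strand, which leaves their counts uncertain.

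**Figure D5:**
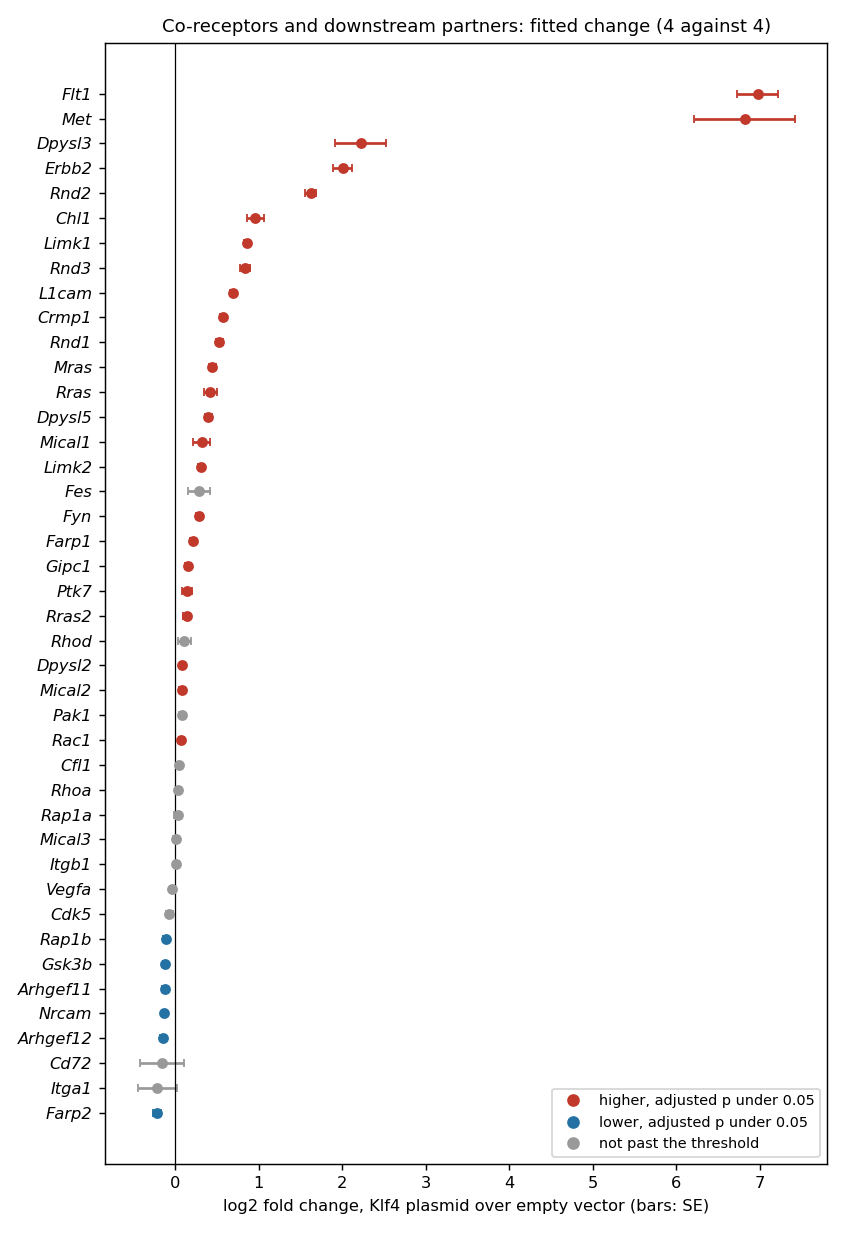
Log2 fold change of the Klf4 plasmid over the empty vector for the 42 tested co-receptors and partners, ordered by size, with SE bars. Flt1 (6.98) and Met (6.82) rest on few control counts, and the 6 lowered genes, in blue, lie between -0.22 and -0.11.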

How the data were processed

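The deposited values were whole-number read counts per gene, 1 column per library. Per the submitters' processing notes, the authors used FastQC, STAR, featureCounts and edgeR with the mm10 build. Versions and strand setting are not given in the sources used here. All 55536 identifiers and symbols matched GENCODE M21 (GRCm38), the source of coordinates and exonic lengths. Counts were filtered with filterByExpr (minimum count 10, 18266 genes kept), scaled with TMM and fitted with terms for batch and plasmid in edgeR 4.0.16 (R 4.3.3, limma 3.58.1, DESeq2 1.42.0 for alternatives), and the procedure was tested on simulated data. Figures were drawn with matplotlib 3.10.9.

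Members and lists were chosen with earlier results of these data known. Values per library were given for members called with a log2 fold change of at least 0.3, the 3 most abundant semaphorins and plexins per length and both neuropilins; other values were added after they had been seen. One marker gene is not reported here. Of the partners, the 5 largest changes were given with values. As a check of pairing by replicate number, over 10485 genes the deviations of same-numbered libraries correlated at 0.479 to 0.638, and those of differently numbered libraries of a batch at 0.49 to 0.593, so that number and batch were not told apart. The series speaks of biological replicates without naming cultures, so p-values measure the spread between these libraries, which may be technical. Alternatives were other scaling factors, filters and tools, fits without batch or with a replicate block, and leaving out each library.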

Additional observations from a re-analysis of the deposited data

Results flagged for a closer look

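Among 50 checks, 1 library stood apart from the other 3 of its group in 3, where chance gives about 2.5. Control replicate 2 had 290 CPM of Plxnb2 against 284 to 285 CPM in the other control libraries. Klf4-transfected replicate 1 had 1.05 CPM of Sema3d against 0.751 to 0.799 CPM, and Klf4-transfected replicate 3 had 64.1 CPM of Sema4b against 70.7 to 71.1 CPM. The first of these gaps is small beside the difference between the groups, and the last lies within the range of the control libraries.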

How the results depend on the processing

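Across 16 alternatives the number of higher members was 19 to 23 and that of lower members was 1, Sema6a, whose log2 fold change ranged from -0.92 to -0.85. With the replicate block in place of batch, 22 members were higher and 1 lower, 22 partners were higher and 6 lower, and no member's call changed. Over all genes 6684 calls became 4116 without the batch term. No called member changed sign in these alternatives. Of 478 values for the 30 tested members, 458 kept their side of the threshold, 17 lost it (Plxnb1, Sema4b and Plxna2) and 3 gained it (Nrp1). The number of members past the interaction threshold, 0 in the fit reported, was 1 with factors from abundant genes (Plxnd1), 2 with no filter (Plxnd1 and Sema6c), 1 with at least 1 CPM in 4 libraries (Plxnd1), and 0 to 1 when a library was left out (Plxna1 without control replicate 1, Sema6c without Klf4-transfected replicate 3); the cause was not tested. Plxna4 and Sema3d gave no value with at least 1 CPM in 4 libraries. Depth limits Plxna4, Plxnb3, Sema3b and Sema3d, with under 30 counts in each control library.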
